A study of Homo sapiens with 4 samples.

Results

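The starting RNA of Huh7 cells carrying a hairpin directed at RBM39 was compared with the starting RNA of Huh7 cells carrying a control hairpin. A feature of the count table was compared when it reached 10 counts in 1 or both of these 2 inputs, which held for 19116 of 56303 features. The inputs come from an RNA immunoprecipitation study, in which RNA bound to RBM39 was recovered with an antibody from Huh7, an established human hepatocellular carcinoma line. It has 4 libraries, 1 for each pairing of hairpin (shControl or shRBM39) and fraction (input or immunoprecipitate, IP). Per the labels, the hairpin was brought in on a plasmid, whereas the sources used here do not give its sequence, the number of hairpins or the time after transfection, and no control antibody library is among the 4. With 1 library a side no difference has a replicate check, so no test was made. The intervals given are 95% intervals of counting error only, and a difference made by the hairpin cannot be told apart from any other difference between the cultures.

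RBM39 is a nuclear RNA-binding protein related to the splicing factor U2AF2. It binds the U2 snRNP protein SF3B1 at the branch site, takes part in the choice of exons, and also acts as a coactivator of transcription factors such as AP-1 proteins and oestrogen receptors. Aryl sulfonamide drugs lead to its destruction through the ubiquitin ligase adaptor DCAF15, and its loss is known to alter splicing and to slow the growth of several cancers.

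Totals were 20858382 counts (shControl) and 22249581 counts (shRBM39). Values are given as raw counts and as CPM, counts per 1000000 after TMM scaling (a scaling by the trimmed mean of the gene ratios), with the shControl input always first. The 15 hepatocyte markers checked against the Huh7 label were all present, with a summed level of 15080 and 13645 CPM. Summed levels of the other marker lists were 24.0 and 22.9 CPM for 11 fibroblast and stellate cell genes (DCN, THY1 and POSTN at 0 in both inputs), 6.63 and 8.89 CPM for 9 endothelial genes (KDR, TEK, ERG, LYVE1 and CLEC4G at 0), 417 and 294 CPM for 11 immune genes (MS4A1 at 0) and 24.6 and 34.6 CPM for 10 neuronal genes (STMN2 and ELAVL3 at 0). Most of the immune sum was LYZ, with 8540 and 5947 counts, and CD3D was called lower (51 and 19 counts, log2 -1.41, -2.28 to -0.65). In bulk RNA, fewer cells of a type and less RNA per cell cannot be told apart.

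RBM39 itself (chromosome 20, 35701347 to 35742260, GRCh38) had 8701 and 8053 counts (406 and 373 CPM). The log2 ratio of shRBM39 over shControl was -0.12 (-0.17 to -0.08), so the transcript in the library labelled shRBM39 was 0.918 times that in the control. Scaling by total counts gave -0.20, and total counts without small structured and mitochondrial RNAs gave -0.26. The protein was not measured here, and every direction below refers to the library labelled shRBM39. The counts per gene also do not separate isoforms. RFX1, a winged-helix transcription factor gene that the series title names, had 70 and 55 counts (3.27 and 2.55 CPM) and a log2 ratio of -0.36 (-0.90 to 0.17), a difference not detectable at this depth. None of the 8 compared RFX family genes was called, and RFX2 came nearest to the threshold with 133 and 67 counts and a log2 ratio of -0.996.

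Calls of higher or lower required a log2 ratio of 1 or more in size, which is 2-fold, and an interval that did not include 0. Of the 19116 features, 1038 (5.43%) were higher and 1202 (6.29%) were lower in the shRBM39 input, 2240 (11.7%) together. The calls of each list below are to be read beside these shares. A list near them shows nothing particular to its members. The shares are not matched to the abundance of a list. Lower calls were 18.1% of features with a summed count under 50 and 0.284% of those with 5000 and over. In a list of abundant genes, 0 lower calls is therefore near the share of such genes. The median log2 ratio over all features was -0.01, with quartiles at -0.39 and 0.39, and 60.2% of features lay within 0.5 of 0. The balance of the calls depended on the scaling, since 46.3% of the calls were in the higher direction with TMM and 36.2% (812 higher and 1430 lower) with total counts. With total counts that leave out small structured and mitochondrial RNAs, which shift the median of all features by -0.13, 722 features were higher and 1624 lower. Calls that scaling by total counts lost are marked "lost with totals" below. Part of the count comes from the filter, because 303 of the higher and 555 of the lower features had 10 counts in only 1 of the inputs.

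The direction of the calls changed with abundance. Among 3740 features with a summed count under 50, 348 (9.31%) were higher and 676 (18.1%) were lower. Among 1760 features with a summed count of 5000 and over, 103 (5.85%) were higher and 5 (0.284%) were lower. The median log2 ratio went from -0.25 in the lowest class through -0.13, -0.02 and 0.06 to 0.18 in the highest. The 5 abundant transcripts called lower were APOA2, the angiotensinogen gene AGT (4621 and 2317 counts, log2 -1.01), the heparin-binding growth factor MDK (9397 and 3440 counts, log2 -1.46), RASSF3 (3716 and 1790 counts, log2 -1.07) and NQO1. MDK and RASSF3 were picked for their values, and the call on AGT was lost with DESeq2 size factors.

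**Figure D1:**
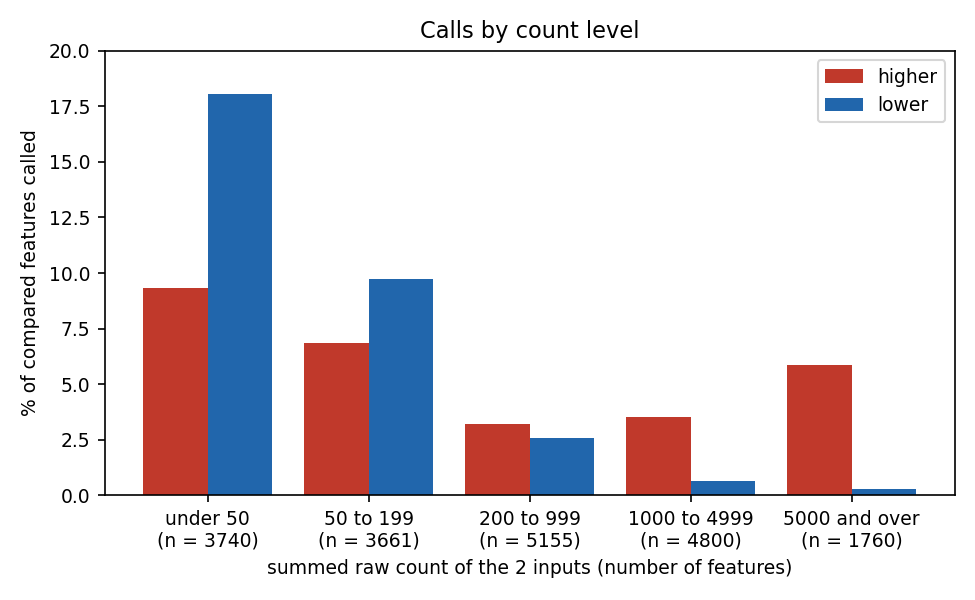
Percentage of compared features called higher (red) or lower (blue) in the shRBM39 input, in 5 classes of the summed raw count of both inputs, with the number of features under each class. Lower calls go from 18.1% in the class under 50 to 0.284% in the class of 5000 and over, whereas higher calls lie between 3.22% and 9.31%.

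Among 10182 protein-coding genes with a summed count of at least 200, 396 (3.89%) were higher and 140 (1.37%) were lower. Protein-coding features had a median log2 ratio of 0.03, long non-coding RNAs -0.15, pseudogenes -0.23, snoRNAs -0.45 and the 24 snRNAs -0.74. Medians of the 23 chromosomes with named genes lay between -0.07 and 0.14. By genomic span, the shortest of 4 equal classes of these protein-coding genes had a median of -0.04 and the longest 0.13.

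**Figure D2:**
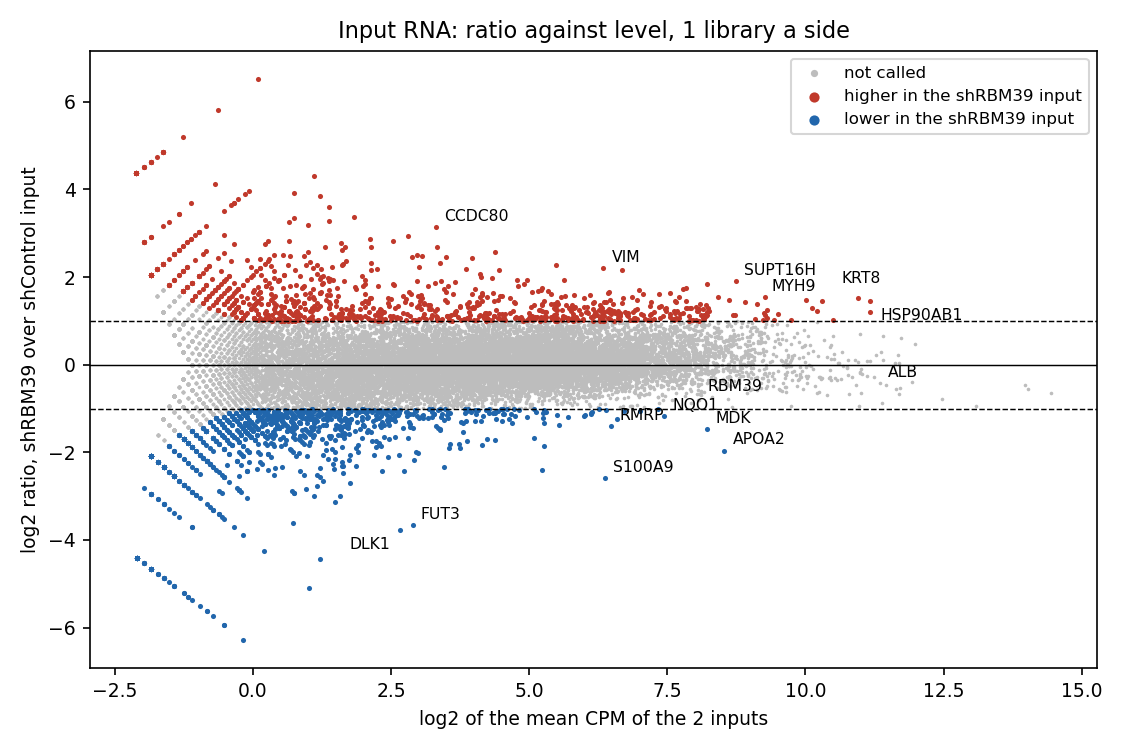
Log2 ratio of the shRBM39 over the shControl input (vertical) against the log2 of the mean CPM of both inputs (horizontal) for each compared feature. Red points were called higher and blue points lower, dashed lines mark 2-fold, and the diagonal rows at the left are features with few counts. Most abundant transcripts outside the dashed lines are above them, among them KRT8, MYH9 and HSP90AB1, with APOA2, MDK and NQO1 below.

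The 15 highest and 15 lowest genes by the interval bound nearer to 0 included genes of secreted proteins on both sides. Each log2 ratio below is followed by its interval where one is given. CCDC80, which encodes a secreted matrix-binding protein (chromosome 3, 112596797 to 112641143), had 43 and 385 counts (2.01 and 17.8 CPM) and a log2 ratio of 3.14 (2.69 to 3.64). BCAS1, a gene first found amplified in breast cancer, had 128 and 767 counts (5.97 and 35.5 CPM), a log2 ratio of 2.57 (2.30 to 2.85). The histone deacetylase gene HDAC9 (chromosome 7, 18086825 to 19002416) had 104 and 568 counts (4.85 and 26.3 CPM), a log2 ratio of 2.43 (2.13 to 2.75). All of these were low in the control input and several times higher in the other. VIM, encoding the intermediate filament vimentin (chromosome 10, 17228241 to 17237593), had 616 and 2874 counts (28.7 and 133 CPM) and a log2 ratio of 2.21 (2.08 to 2.34), and it overlaps the antisense gene VIM-AS1. PTRF (now CAVIN1), which encodes a coat protein of caveolae, had 810 and 3634 counts (37.8 and 168 CPM), a log2 ratio of 2.15 (2.04 to 2.27). EDN1, encoding the vasoconstrictor peptide endothelin, had 74 and 378 counts (3.45 and 17.5 CPM), a log2 ratio of 2.33 (1.98 to 2.72). The rest of the 15, with log2 ratios, were MALRD1 (2.94), a regulator of bile acid signalling, the protease inhibitor gene SLPI (2.49), the kinase gene NRK (2.502), the endoplasmic reticulum protein gene ERP27 (2.47), the collagen gene COL12A1 (2.46), ANKRD1, SAA1, SAA2 and the read-through feature SAA2-SAA4. SAA1 and SAA2 are near-identical copies and SAA2-SAA4 shares exons with both its parents, so how the counts divide among them is uncertain.

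The lowest gene by this measure was DLK1 (chromosome 14, 100726892 to 100738224), an imprinted gene of fetal liver whose product is a Notch-like membrane protein, with 252 and 18 counts (11.8 and 0.833 CPM) and a log2 ratio of -3.78 (-4.60 to -3.13). FUT3, encoding the fucosyltransferase of the Lewis antigens, had 295 and 23 counts (13.8 and 1.06 CPM) and a log2 ratio of -3.66 (-4.37 to -3.08), with the reservation that FUT5 and FUT6 are close copies. S100A9, a calcium-binding protein gene of inflammation (chromosome 1, 153357854 to 153361023), had 3035 and 508 counts (142 and 23.5 CPM) and a log2 ratio of -2.59 (-2.73 to -2.46). These were the 3 with the bounds farthest from 0. RARRES2, encoding the adipokine chemerin, had 1365 and 258 counts (63.7 and 11.9 CPM), a log2 ratio of -2.41 (-2.61 to -2.22). APOA2, the apolipoprotein gene of high density lipoprotein (chromosome 1, 161222292 to 161223628), had 12593 and 3260 counts (588 and 151 CPM), a log2 ratio of -1.96 (-2.02 to -1.91). HPN, which encodes the hepatocyte surface protease hepsin, had 241 and 45 counts (11.2 and 2.08 CPM), a log2 ratio of -2.42 (-2.93 to -1.97), and overlaps HPN-AS1. The others, with log2 ratios, were the serine protease gene HTRA3 (-2.34), the laminin gene LAMA4 (-2.18), the semaphorin receptor gene PLXND1 (-1.84), the proteoglycan gene SPOCK2 (-2.11), EMC10 (-2.01), ANGPTL8 (-2.06), which lies within the span of DOCK6, the cathepsin gene CTSF (-1.91), and the long non-coding RNAs LINC00540 (-2.43) and LINC01234 (-1.999).

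**Figure D3:**
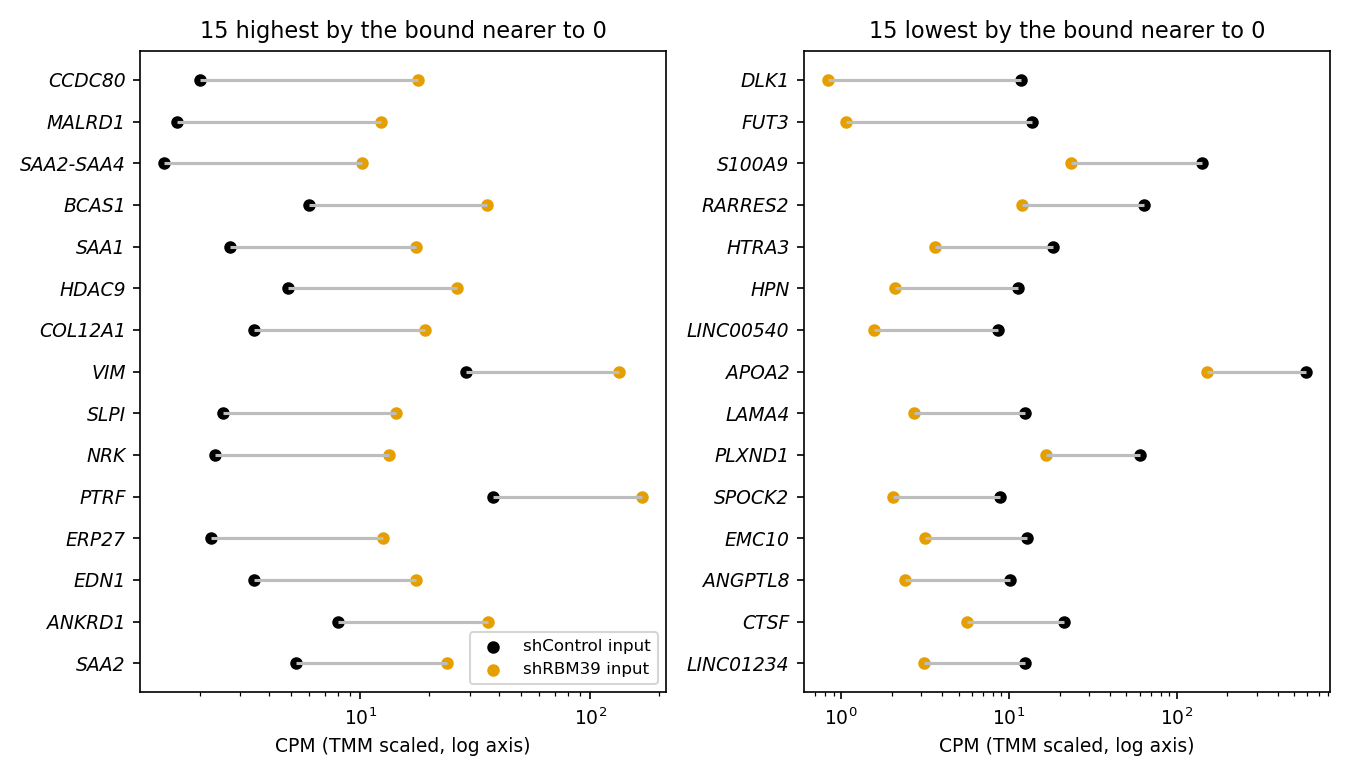
CPM in the shControl input (black) and the shRBM39 input (orange) on a log axis, joined by a line, for the 15 highest genes (left) and the 15 lowest genes (right) by the interval bound nearer to 0. VIM went from 28.7 to 133 CPM and APOA2 from 588 to 151 CPM, and each point is 1 library.

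Among genes of the cytoskeleton, intermediate filament genes were mostly called higher in the shRBM39 input, whereas most actin and myosin genes were not called. Of 11 compared intermediate filament genes, 8 were higher and 0 lower, with a median log2 ratio of 1.19 against -0.01 over all features. The simple epithelial keratins KRT8 (21950 and 63770 counts, log2 1.53, 1.504 to 1.55), KRT18 (8069 and 18343 counts, log2 1.17, 1.13 to 1.21) and KRT19 (728 and 2229 counts, log2 1.60, 1.48 to 1.72) were among them. KRT8 and KRT18 overlap in the annotation, so some of their reads may be shared. The lamin genes LMNA (899 and 2801 counts, log2 1.63) and LMNB2 (3250 and 7036 counts, log2 1.10), KRT23 (log2 1.19), KRT15 (6 and 44 counts, log2 2.76) and VIM made up the rest, with LMNB2 lost with totals without small structured and mitochondrial RNAs. The 3 members not called were LMNB1 (log2 0.96), NES (0.02) and SYNM (-0.07).

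Of 59 actin filament and myosin genes, 8 were higher and 2 lower, with a median log2 ratio of 0.45 and 53 above 0, and 49 were not called. The non-muscle myosin gene MYH9 had 14497 and 39837 counts (677 and 1844 CPM), a log2 ratio of 1.45 (1.42 to 1.47). The actin cross-linkers ACTN4 (6778 and 19909 counts, log2 1.54, 1.502 to 1.58) and FLNA (762 and 1817 counts, log2 1.24, 1.12 to 1.37), the membrane linker EZR (2625 and 7303 counts, log2 1.46, 1.40 to 1.53) and LIMA1 (log2 1.14) were also higher. TAGLN, a smooth muscle actin-binding protein gene, was low, with 12 and 48 counts (log2 1.94). The 2 lower members were the calponin gene CNN1 (26 and 6 counts, log2 -2.04, -3.70 to -0.81) and TMOD2 (156 and 58 counts, log2 -1.43, -1.9004 to -0.996), which caps actin filaments.

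Adhesion genes were called in both directions. Of 40 focal adhesion and integrin signalling genes, 6 were higher and 2 lower (median 0.28), against 5.43% and 6.29% over all features. Talin, which links integrins to actin, stood out through both of its genes, TLN1 with 1954 and 6146 counts (log2 1.64, 1.57 to 1.72) and TLN2 with 248 and 740 counts (log2 1.56, 1.36 to 1.78). TNS3 (1533 and 3567 counts, log2 1.21) and VCL (814 and 1834 counts, log2 1.16) were higher too, and TRIP6 (log2 1.04) was higher (lost with totals). TNS2 (83 and 37 counts, log2 -1.17, -1.78 to -0.60) was lower, as was FERMT3 with 11 and 2 counts (log2 -2.21, -5.69 to -0.28), a call lost with counts divided by 2 and with a 99% interval. Of 18 integrin subunits, 3 were higher and 0 lower, all of them with few counts. ITGB8, a subunit of the receptor that releases active TGF-beta, had 16 and 114 counts (0.747 and 5.28 CPM), a log2 ratio of 2.78 (2.06 to 3.68), ITGB3 had 17 and 48 counts (log2 1.46, 0.66 to 2.38) and ITGA11 2 and 20 counts (log2 3.02, 1.27 to 6.45). The abundant subunits were not called, with log2 ratios of -0.13 for ITGB1 (8947 and 8251 counts), -0.41 for ITGA6 and -0.09 for ITGAV.

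Junction genes, which join epithelial cells to each other, were called mostly in the higher direction. Of 33 compared members, 9 were higher and 1 lower (median 0.56). The desmosome genes DSP (3890 and 9027 counts, log2 1.20, 1.15 to 1.26) and PKP2 (522 and 1537 counts, log2 1.54, 1.40 to 1.69), the catenin genes CTNNA1 (1401 and 4335 counts, log2 1.62, 1.53 to 1.71) and CTNND1 (2155 and 4456 counts, log2 1.04, lost with totals), the tight junction scaffold gene CGN (784 and 1610 counts, log2 1.03, lost with totals), and the intestinal cadherin gene CDH17 (276 and 803 counts, log2 1.53, 1.33 to 1.73) were higher. CLDN2 (19 and 43 counts) and CEACAM5 (2 and 10 counts, log2 2.06, 0.08 to 5.54, lost with totals and with counts divided by 2) were higher at low counts, and CLDN3 was lower with 20 and 4 counts (log2 -2.20, -4.34 to -0.76). The main cadherins CDH1 (738 and 946 counts, log2 0.35) and CDH2 (1545 and 1539 counts, log2 -0.02) were not called. Among 14 genes that regulate the transition between epithelial and mesenchymal states, 4 were higher, with regulators of both states among them. The mesenchymal factors ZEB2 (38 and 138 counts, log2 1.83, 1.32 to 2.41) and SNAI2 (2 and 22 counts, log2 3.16, 1.42 to 6.58) were higher, and so were the epithelial splicing factor gene ESRP1 (26 and 62 counts, log2 1.23, 0.56 to 1.96) and GRHL2, which was at 0 in the shControl input and had 12 counts in the other, at least 3.97-fold against a floor of 3 counts.

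The calcium-binding S100 and annexin families gave calls in opposite directions. Of 19 members 6 were higher and 4 lower, and 5 of the 6 higher ones were annexins: ANXA1 (12 and 70 counts, log2 2.48, 1.64 to 3.55), ANXA3 (148 and 603 counts, log2 2.01, 1.75 to 2.28), ANXA13 (46 and 162 counts, log2 1.79), ANXA4 (1324 and 2995 counts, log2 1.17) and ANXA2 (3988 and 8895 counts, log2 1.15). The sixth was S100A10, the partner of ANXA2 in a membrane complex, with 3820 and 7741 counts and a log2 ratio of 1.01 (lost with totals). Lower members were all S100 genes, namely S100A9, S100A14 (131 and 26 counts, log2 -2.32, -3.01 to -1.73), S100A4 (64 and 27 counts, log2 -1.24) and S100P (252 and 109 counts, log2 -1.22).

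Matrix genes were split, with 5 of 39 higher and 5 lower (median -0.02). COL12A1 had 74 and 414 counts (3.45 and 19.2 CPM), a log2 ratio of 2.46 (2.11 to 2.85), and the basement membrane collagen gene COL4A1 6 and 66 counts (log2 3.34, 2.25 to 4.94). The laminin gene LAMB3 (23 and 89 counts, log2 1.92) and SPARC (28 and 96 counts, log2 1.75) were higher, while LAMA4 (266 and 59 counts, log2 -2.18, -2.62 to -1.77), COL6A2 (70 and 12 counts, log2 -2.51, -3.58 to -1.66) and the proteoglycan gene VCAN (674 and 313 counts, log2 -1.12, -1.32 to -0.92) were lower. COL4A4 (13 and 2 counts, log2 -2.45, -5.90 to -0.57) and BGN (10 and 2 counts, log2 -2.08, -5.56 to -0.10) were lower with a few counts each, and both calls were lost with counts divided by 2. Of 36 TGF-beta and BMP pathway genes, FSTL1 (60 and 286 counts, log2 2.23, 1.83 to 2.67), the activin subunit gene INHBA (18 and 56 counts, log2 1.60) and TGFB2 were higher, and the BMP target HAMP (64 and 8 counts, log2 -2.94, -4.28 to -1.95), which encodes the iron hormone hepcidin, was lower.

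YAP and its partner WWTR1 are coactivators that bind TEAD transcription factors and switch on genes of growth and of the cytoskeleton. Of 29 genes in the list of targets and pathway members, 10 were higher and 0 lower (median 0.39). ANKRD1 (chromosome 10, 90912096 to 90921087), a widely used target, had 172 and 773 counts (8.03 and 35.8 CPM), a log2 ratio of 2.15 (1.92 to 2.40). MYOF had 34 and 156 counts (log2 2.17, 1.64 to 2.77), NUAK2 22 and 82 counts (log2 1.86, 1.19 to 2.64), IGFBP3 164 and 510 counts (log2 1.62, 1.37 to 1.89), CYR61 (now CCN1) 126 and 308 counts (log2 1.27, 0.97 to 1.59) and AMOTL2 1105 and 2673 counts (log2 1.26, 1.16 to 1.36). The pathway regulators WWC1 (log2 1.19), PTPN14 (1.10) and AJUBA (1.06, lost with totals) were higher, and TGFB2 (143 and 292 counts, log2 1.02, lost with totals) was higher. The call on PTPN14 was lost with totals without small structured and mitochondrial RNAs. CTGF, another classical target, was not called (1273 and 1400 counts, log2 0.12), nor were YAP1 (-0.10), WWTR1 (0.32) or TEAD1 (0.21).

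Promoters of higher members of this list are shown because TEAD factors bind the letters GGAATG. In the 250 bases upstream of the first listed start (RefSeq, GRCh38.p14), searched on both strands, 4 of the 9 higher members with a listed promoter held these letters, namely ANKRD1, NUAK2, PTPN14 and TGFB2. The share was 6 of 22 (27.3%) over the list with a promoter and 9.30% over 8496 protein-coding genes with 200 summed counts. The TATA box letters TATAAA were also in 6 of 22 promoters of the list (27.3%) and in 2 of the 9 higher members. They were in 5.39% of the 8496 genes, so a raised share in this list is not particular to the TEAD letters. Capitals mark the match, on either strand, in ANKRD1 (chr10:90921088-90921337, minus strand), NUAK2 (chr1:205321746-205321995, minus strand) and PTPN14 (chr1:214551603-214551852, minus strand), each written 5′ to 3′ towards the gene.
ANKRD1: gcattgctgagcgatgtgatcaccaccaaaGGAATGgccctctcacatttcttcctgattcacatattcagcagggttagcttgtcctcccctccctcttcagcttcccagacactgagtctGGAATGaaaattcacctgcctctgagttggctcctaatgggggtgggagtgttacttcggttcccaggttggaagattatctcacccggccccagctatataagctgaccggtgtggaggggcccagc
NUAK2: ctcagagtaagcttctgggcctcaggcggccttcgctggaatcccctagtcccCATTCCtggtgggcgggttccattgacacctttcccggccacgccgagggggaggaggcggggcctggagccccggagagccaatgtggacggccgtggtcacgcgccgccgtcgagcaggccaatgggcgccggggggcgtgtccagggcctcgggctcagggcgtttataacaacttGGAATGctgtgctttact
PTPN14: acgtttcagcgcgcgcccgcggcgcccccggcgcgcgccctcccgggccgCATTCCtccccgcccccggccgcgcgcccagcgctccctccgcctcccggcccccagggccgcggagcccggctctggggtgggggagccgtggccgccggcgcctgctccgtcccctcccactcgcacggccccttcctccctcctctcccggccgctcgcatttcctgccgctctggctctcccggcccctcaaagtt
ANKRD1 and NUAK2 each held 2 matches and PTPN14 held 1. A match is a description of the letters and says nothing of binding in these cells.

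DNA replication genes were called in 1 direction. Of protein-coding genes with a summed count of at least 200, 1.37% were lower. Of 41 genes of replication licensing and S phase, 9 were higher and 0 lower, with a median log2 ratio of 0.54 and 35 of 41 above 0. The replicative helicase has 6 subunits, and 5 were higher: MCM7 with 2191 and 7319 counts (102 and 339 CPM) and a log2 ratio of 1.73 (1.66 to 1.80), MCM6 with 892 and 2844 counts (log2 1.66, 1.55 to 1.77), MCM3 with 4434 and 12514 counts (log2 1.48, 1.44 to 1.53), MCM4 with 2971 and 7359 counts (log2 1.296, 1.23 to 1.36) and MCM5 with 1092 and 2258 counts (log2 1.04, 0.93 to 1.14, lost with totals). MCM2 was just below the threshold (1172 and 2226 counts, log2 0.91). MCM7 overlaps AP4M1 in the annotation. The other higher members were UHRF1, which brings DNA methylation to newly made DNA (1262 and 3732 counts, log2 1.55, 1.46 to 1.65), the ribonucleotide reductase gene RRM1 (841 and 2275 counts, log2 1.42, 1.31 to 1.54), MCM10 (852 and 1969 counts, log2 1.20) and TK1 (368 and 780 counts, log2 1.07, lost with totals). PCNA (log2 0.51), CCNE1 (-0.23) and E2F1 (0.35) were not called, and the origin-loading factors CDT1 (0.24) and CDC6 (0.63) were not called either.

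E2F factors switch on S phase genes through letters such as GCGGGAA. These letters were present on either strand in 4 of the 7 higher replication genes with a listed promoter, MCM7, UHRF1, MCM3 and RRM1. They were in 12 of 35 promoters of the whole list (34.3%), in 9.44% of the 8496 protein-coding genes and in 10.1% of the 328 of these called higher. The promoters of MCM7 (chr7:100101398-100101647, minus strand), UHRF1 (chr19:4909251-4909500, plus strand) and MCM3 (chr6:52284743-52284992, minus strand) are written as above, with the matches in capitals.
MCM7: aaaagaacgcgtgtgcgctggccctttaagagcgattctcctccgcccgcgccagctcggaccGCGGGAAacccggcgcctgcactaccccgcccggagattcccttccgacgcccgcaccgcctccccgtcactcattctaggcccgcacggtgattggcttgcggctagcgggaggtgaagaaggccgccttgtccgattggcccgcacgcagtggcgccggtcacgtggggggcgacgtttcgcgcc
UHRF1: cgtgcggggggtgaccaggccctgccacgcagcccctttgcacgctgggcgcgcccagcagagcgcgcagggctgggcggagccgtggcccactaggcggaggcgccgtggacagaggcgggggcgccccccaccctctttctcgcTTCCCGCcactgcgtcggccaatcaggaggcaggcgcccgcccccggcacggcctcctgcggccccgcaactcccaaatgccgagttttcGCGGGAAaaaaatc
MCM3: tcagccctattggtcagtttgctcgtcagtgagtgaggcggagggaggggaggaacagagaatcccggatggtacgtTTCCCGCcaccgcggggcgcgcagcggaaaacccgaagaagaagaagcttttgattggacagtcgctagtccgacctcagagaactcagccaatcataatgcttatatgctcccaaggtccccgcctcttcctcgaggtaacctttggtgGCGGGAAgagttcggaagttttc
The stretch of UHRF1 lies within the RefSeq span of the gene (chromosome 19, 4903080 to 4962154), at the first start the promoter table lists. UHRF1 and MCM3 held 2 matches each, and MCM7 held 1. Of the other motifs searched on both strands, the AP-1 letters TGANTCA were in 7.01% of higher, 2.75% of lower and 3.44% of all these protein-coding promoters, and the TATA letters TATAAA in 6.40%, 9.17% and 5.39%. The TEAD letters were in 10.7% of higher and 7.34% of lower promoters.

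The called genes of mitosis and repair were all higher, set beside 5.43% higher over all features. Among protein-coding genes with a summed count of at least 200, 3.89% were higher and 1.37% lower. Of 55 mitosis genes 5 were higher and 0 lower (median 0.48, 47 above 0). KIF4A, a chromosome-associated kinesin gene, had 899 and 2173 counts (log2 1.26, 1.15 to 1.37), and KIF23 (1.08), INCENP (1.03), ESPL1 (1.02) and KIFC1 (1.02) were lost with totals, which left 1 of 55. Of 49 repair and damage response genes 4 were higher and 0 lower, and CLSPN (3027 and 7468 counts, log2 1.29, 1.23 to 1.35), a replication checkpoint adaptor, the DNA ligase gene LIG1 (695 and 1714 counts, log2 1.29), and the mismatch repair gene MSH6 (1563 and 3801 counts, log2 1.27) were among them. Of 26 p53 targets, TP53I3 (log2 1.05, lost with totals) and CDKN1A (38 and 78 counts, log2 1.02, 0.45 to 1.62, lost with totals) were higher, and the death-promoting genes PMAIP1 (218 and 88 counts, log2 -1.32, -1.70 to -0.96) and BBC3 (167 and 78 counts, log2 -1.11, -1.52 to -0.71) were lower. Of 53 replication-dependent histone genes 0 were higher and 1 was lower (HIST1H4J, now H4C11, with 12 counts against 0), with a median of 0.19.

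Genes of the splicing machinery were mostly above 0. Of 39 RBM39 partners and SR protein genes, 33 had a ratio above 0 (median 0.53), and 3 were called higher (against 5.43% of all features). DDX46, the helicase of the U2 snRNP, had 3402 and 8248 counts (159 and 382 CPM), a log2 ratio of 1.27 (1.21 to 1.32). SNRNP70 (2738 and 5721 counts, log2 1.05, 0.98 to 1.12) and PRPF8 (3999 and 8311 counts, log2 1.04, 0.99 to 1.10) were just past the threshold (lost with totals). SF3A2 (1074 and 2162 counts, log2 0.997) and SF3B1 (2106 and 4196 counts, log2 0.98), the U2 protein that RBM39 binds, were just short of it. U2AF2 had 3596 and 6549 counts (log2 0.85), the RBM39 relative RBM23 870 and 976 counts (0.15), PUF60 1615 and 1953 counts (0.26) and DCAF15 127 and 206 counts (0.68). SRSF1 to SRSF11 ranged from -0.40 (SRSF8) to 0.77 (SRSF6, 5402 and 9260 counts), with 0 called, and SRSF12, outside the list and named after its value was seen, had 176 and 78 counts (log2 -1.18, -1.59 to -0.79). U2AF1 had 18 counts in each input.

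Of 27 hnRNP genes, 4 were higher and 0 lower (median 0.48). HNRNPM had 6618 and 17330 counts (log2 1.38, 1.34 to 1.42) and HNRNPU, a nuclear matrix protein gene, 15279 and 35844 counts (log2 1.22, 1.19 to 1.25). HNRNPH1 (12205 and 24846 counts, log2 1.01) and HNRNPH2 (1104 and 2328 counts, log2 1.06), a closely related pair, were higher (lost with totals). Among 48 translation factors 3 were higher and 1 lower, against 5.43% higher and 6.29% lower over all features. EIF3A (11587 and 32719 counts, log2 1.49, 1.45 to 1.52), EIF3C (49 and 142 counts, log2 1.51), which has a near-identical copy, and EIF4G1 (7647 and 15907 counts, log2 1.04, lost with totals) were higher. EIF5A2 (318 and 160 counts, log2 -1.001, a call lost with DESeq2 size factors and with counts divided by 2) was lower. Chaperone genes were called among the heat shock genes of the cytosol and nucleus. Of 23 heat shock genes 4 were higher, led by the cytosolic HSP90AB1 (26481 and 72929 counts, log2 1.45, 1.43 to 1.47) and HSP90AA1 (29752 and 69550 counts, log2 1.21, 1.19 to 1.23), with HSPA2 (1.43) and HSPA1A (1.297, near-identical to HSPA1B). Of 25 endoplasmic reticulum chaperone genes 0 were called (median -0.16), and of 35 proteasome subunit genes 0 were called, with 30 above 0 (median 0.34).

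Hepatocyte genes did not move in one direction. Of the 15 hepatocyte markers, APOA2 was lower and 0 were higher. ALB had 63842 and 48104 counts (log2 -0.42), AFP, the fetal liver serum protein, 57974 and 88845 counts (0.60), APOB 87168 and 55096 counts (-0.67), SERPINA1 32599 and 27136 counts (-0.28) and TTR 1139 and 1912 counts (0.73). Of 36 hepatocyte transcription factors 2 were higher, a share near the 5.43% of all features. They were NR1I2, the xenobiotic receptor gene, with 8 and 60 counts (log2 2.82, 1.82 to 4.17) and CREB3L3 with 2097 and 4262 counts (log2 1.01, lost with totals). HNF4A (4402 and 6698 counts, log2 0.59), FOXA2 (0.15) and CEBPA (0.01) were not called.

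Acute-phase and inflammatory genes were the secreted liver group with the highest median, 0.67, with 8 of 29 higher and 0 lower. SAA1 had 58 and 377 counts (2.71 and 17.4 CPM), a log2 ratio of 2.68 (2.29 to 3.11), SAA2 112 and 516 counts (log2 2.19, 1.89 to 2.4996) and SAA4 13 and 140 counts (log2 3.37, 2.60 to 4.36), with the reservation above on shared reads. SOCS3, a feedback inhibitor of cytokine signalling, had 18 and 84 counts (log2 2.18, 1.46 to 3.03). The chemokine gene CXCL6 (76 and 236 counts, log2 1.62), IL18 (24 and 76 counts, log2 1.63), the siderophore-binding LCN2 (590 and 1300 counts, log2 1.13) and the haptoglobin gene HP (668 and 1450 counts, log2 1.11) were also higher. CXCL8 (0.81), NFKBIA (0.40), ICAM1 (-0.11) and CCL20 (-0.88) were not called. Complement genes were 5 of 25 higher and 0 lower (median 0.26): CFHR5 (20 and 82 counts, log2 1.996), the first component protease genes C1R (194 and 480 counts, log2 1.29, 1.05 to 1.54) and C1S (690 and 1476 counts, log2 1.08, 0.95 to 1.22), CFI (1173 and 2656 counts, log2 1.17, 1.07 to 1.27) and C6 (22 and 45 counts, log2 1.004). The call on C6 was lost under 4 settings, total counts and counts divided by 2 included, and those on HP, LCN2 and C1S with totals without small structured and mitochondrial RNAs.

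Plasma carriers had more lower than higher calls, with 2 of 45 higher and 7 lower (median -0.12). IGFBP2 had 118 and 26 counts (log2 -2.17, -2.87 to -1.57), IGFBP1 36 and 14 counts (log2 -1.34), ITIH3 92 and 38 counts (log2 -1.28), AZGP1 36 and 16 counts (log2 -1.16) and ANGPTL8 216 and 52 counts (log2 -2.06, -2.53 to -1.62). AGT and FETUB, the latter with 12 counts against 0, completed the 7, and HP and ITIH1 (14 and 30 counts, log2 1.06, lost with totals and with counts divided by 2) were the higher pair. The call on AZGP1 was lost with counts divided by 2. Of 29 apolipoprotein and lipoprotein genes, APOA2 and APOL1 (26 and 7 counts, log2 -1.83, -3.35 to -0.66) were lower, whereas APOA1 (18537 and 25355 counts, log2 0.44), APOE (-0.18) and MTTP (-0.01) were not called. Coagulation genes held the plasminogen gene PLG (190 and 578 counts, log2 1.59, 1.35 to 1.84) and TFPI2 (11 and 36 counts, log2 1.65) on the higher side and the hepatokine gene FGL1 (2058 and 978 counts, log2 -1.09, -1.20 to -0.97) and the urokinase receptor gene PLAUR (118 and 52 counts, log2 -1.19) on the lower side, of 26 compared.

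Of 72 drug-metabolising genes, 10 were higher, 5 were lower and 57 were not called, against 5.43% higher and 6.29% lower over all features. The carboxylesterase gene CES1 had 280 and 1016 counts (13.1 and 47.02 CPM), a log2 ratio of 1.85 (1.65 to 2.04), and ALDH8A1 22 and 117 counts (log2 2.37, 1.73 to 3.13). SULT1E1 (8 and 48 counts, log2 2.5002), GSTA2 (8 and 45 counts, log2 2.41), UGT2A3 (12 and 52 counts, log2 2.06) and CYP2W1 (3 and 16 counts, log2 2.22, 0.60 to 4.82) were higher at low counts. The sulfotransferase genes SULT1A1 (416 and 168 counts, log2 -1.32, -1.59 to -1.06) and SULT1A2 (85 and 14 counts, log2 -2.57, -3.55 to -1.79), which are close copies, and the bile acid hydroxylase gene CYP39A1 (233 and 86 counts, log2 -1.44, -1.82 to -1.09) were lower, with CYP2C19 (35 and 14 counts, log2 -1.304) and UGT2B10 (10 counts against 0). The calls on CYP2W1, CYP2C19 and UGT2B10 were lost with counts divided by 2. Among 29 transporter and bile acid genes, the drug efflux pump gene ABCB1 (542 and 1381 counts, log2 1.34, 1.19 to 1.48), FOLH1 (36 and 168 counts, log2 2.19, 1.68 to 2.77), SLC27A2 (1.16) and BAAT (12 and 25 counts, 1.02, lost with totals, with counts divided by 2 and with TMM over all 4 libraries) were higher, and the glucose transporter gene SLC2A2 (74 and 32 counts, log2 -1.21, -1.87 to -0.61) was lower.

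In central metabolism, 5 of 28 glycolysis and gluconeogenesis genes were higher and 0 lower (median 0.42). PKM had 8079 and 19337 counts (log2 1.25, 1.21 to 1.28), the glycolytic regulator PFKFB3 974 and 2352 counts (log2 1.26, 1.15 to 1.37) and PCK1, of gluconeogenesis, 12 and 48 counts (log2 1.94, 1.05 to 3.04). ENO1 (1.02) and PGK1 (1.01) were higher too (lost with totals). Of 26 cholesterol synthesis genes 0 were called. Of 36 fatty acid genes 2 were higher, near the 5.43% of all features, with HADHA, of fatty acid oxidation, at 1306 and 2886 counts (log2 1.13). Of 30 one-carbon metabolism genes, 4 were higher, 2 were lower and 24 were not called (median 0.03). The lower share was near the 6.29% of all features. BHMT (1.42), MTHFD1 (784 and 1688 counts, log2 1.09), GLDC (1.08) and PHGDH (1.03) were higher. The folate oxidase genes ALDH1L1 (42 and 14 counts, log2 -1.56) and ALDH1L2 (296 and 145 counts, log2 -1.04) were lower. Calls on GLDC and PHGDH were lost with totals, and those on HADHA and MTHFD1 with totals without small structured and mitochondrial RNAs. In nitrogen and amino acid breakdown, OTC (18 and 78 counts, log2 2.07), HPD (12 and 52 counts, log2 2.06) and TDO2 (16 and 40 counts, log2 1.28) were higher and SLC25A15 (646 and 322 counts, log2 -1.02) was lower, of 30 genes.

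Most stress response genes were not called, set beside 11.7% of all features called in either direction. NQO1, an NRF2 target, had 5159 and 2302 counts (241 and 107 CPM), a log2 ratio of -1.18 (-1.25 to -1.11), and MT1A 77 and 32 counts (log2 -1.27), while OSGIN1 (105 and 215 counts, log2 1.02) and MT1F (12 and 26 counts, log2 1.07) were higher (both lost with totals, and MT1F also with counts divided by 2), of 27 NRF2 and metallothionein genes. Of 27 genes of the ATF4 response, PHGDH was higher and STC2 (1555 and 686 counts, log2 -1.19, -1.32 to -1.06) lower. Hypoxia targets included NDRG1 (837 and 2245 counts, log2 1.41, 1.296 to 1.53) as the higher member and EPO (26 and 2 counts, log2 -3.42, -6.83 to -1.71) and STC2 as the lower ones, of 25. Of 18 iron handling genes, 2 were lower, the ferroportin gene SLC40A1 (2042 and 961 counts, log2 -1.10, -1.21 to -0.99) and that of its ligand hepcidin, HAMP. Of 34 lysosome and autophagy genes, CTSS, a cathepsin gene, was higher (44 and 101 counts, log2 1.18, 0.66 to 1.73) and 0 were lower. Of 31 AP-1 and immediate early genes, FOSL2 was higher (116 and 373 counts, log2 1.67, 1.37 to 1.99) and 0 were lower.

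Interferon-stimulated genes gave higher calls, whereas HLA genes and natural killer cell ligands gave mostly lower ones. Over all features 5.43% were higher and 6.29% lower. Of 31 interferon-stimulated genes 6 were higher and 0 lower (median 0.58). GBP1 had 20 and 80 counts (log2 1.96, 1.27 to 2.77), STAT2, a subunit of the interferon-activated factor, 64 and 171 counts (log2 1.40, 0.98 to 1.84), SAMD9 30 and 82 counts (log2 1.42) and IFIT3 67 and 172 counts (log2 1.34). IRF1 (130 and 274 counts, log2 1.06) and IFIT1 (14 and 30 counts, log2 1.06) were higher (lost with totals, and IFIT1 also with counts divided by 2). ISG15 (134 and 113 counts, log2 -0.26), IFI6 (-0.42) and MX1 (0.54) were not called.

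Of 23 HLA and antigen processing genes 2 were higher, 7 were lower and 14 were not called (median -0.63). HLA-B had 145 and 63 counts (log2 -1.21, -1.67 to -0.78), HLA-C 566 and 264 counts (log2 -1.11, -1.33 to -0.90) and HLA-F 56 and 17 counts (log2 -1.70, -2.61 to -0.93), whereas B2M, encoding their common light chain, was not called (1150 and 1316 counts, log2 0.18). HLA genes are similar to each other, so counts may be shared among them. The stress-induced ligands MICA (57 and 14 counts, log2 -1.9997, -2.996 to -1.18), MICB (249 and 111 counts, log2 -1.17, -1.51 to -0.85), ULBP1 (52 and 20 counts, log2 -1.37, -2.21 to -0.62) and ULBP2 (62 and 20 counts, log2 -1.62, -2.45 to -0.90), which natural killer cells recognise through NKG2D, made up the rest of the lower genes. HLA-DMB (14 and 42 counts, log2 1.54) and NLRC5 (2 and 10 counts, log2 2.06, 0.08 to 5.54, lost with totals and with counts divided by 2) were higher.

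Signalling and progenitor genes were called in both directions, and most were not called, set beside 11.7% of all features called. PROM1, encoding the progenitor surface protein CD133, had 279 and 1071 counts (13.02 and 49.6 CPM), a log2 ratio of 1.93 (1.74 to 2.12), and CD44 97 and 212 counts (log2 1.11), while DLK1, the Wnt pathway gene LGR5 (114 and 56 counts, log2 -1.03) and NNAT (10 and 1 counts, log2 -2.82, -8.77 to -0.52) were lower, of 30. Among 47 growth factor and receptor genes, FGFR2 (234 and 651 counts, log2 1.46, 1.25 to 1.69) and NRG1 (20 and 56 counts, log2 1.45) were higher and 5 were lower: FLT1 (90 and 14 counts, log2 -2.65, -3.62 to -1.88), HEY1 (78 and 30 counts, log2 -1.38), DDR1 (124 and 48 counts, log2 -1.37), NOTCH3 (112 and 54 counts, log2 -1.06) and FGF18 (26 and 12 counts, log2 -1.10). Among 36 Wnt genes the secreted inhibitor gene NOTUM (33 and 8 counts, log2 -1.99, -3.38 to -0.91) and LGR5 were lower, and WIF1 (2 and 10 counts, log2 2.06, 0.08 to 5.54) and WNT5A (28 and 57 counts, log2 1.0004) were higher (both lost with totals and with counts divided by 2, and WNT5A also with TMM over all 4 libraries). The calls on NNAT and FGF18 were lost with counts divided by 2, and that on CD44 with totals without small structured and mitochondrial RNAs. Biliary markers had a summed level of 256 and 444 CPM (AQP1 at 0 in both inputs), with KRT19 and the chloride channel gene CFTR (55 and 197 counts, log2 1.82, 1.39 to 2.29) as the 2 of 7 called higher. Their part in the keratin and junction results was not tested.

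**Figure D4:**
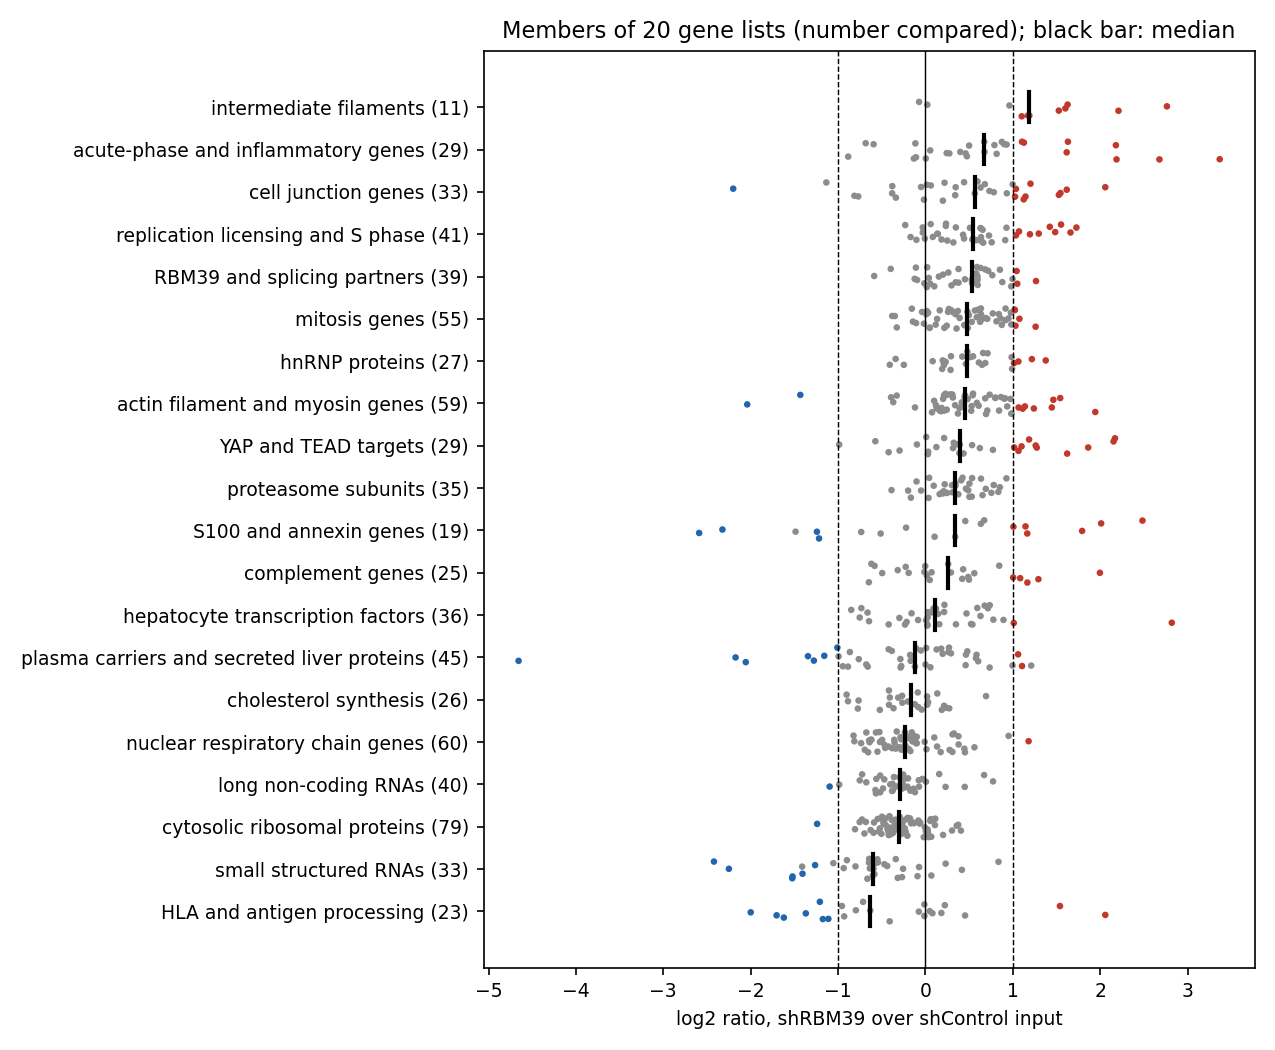
Log2 ratio of the shRBM39 over the shControl input for each compared member of 20 gene lists, with the number compared after each name, red for higher, blue for lower, grey for not called, and a black bar at the median. Medians run from -0.63 (HLA and antigen processing) to 1.19 (intermediate filaments), and dashed lines mark 2-fold.

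Ribosomal protein genes and small structured RNAs mostly had ratios below 0. Of 79 ribosomal protein genes, 63 had a log2 ratio below 0 (median -0.30), and RPL39 (2888 and 1233 counts, log2 -1.24, -1.34 to -1.14) was the 1 called lower. Among 33 small structured RNAs, 29 were below 0 (median -0.59), and 6 were called lower (against 6.29% of all features). By annotation, 19 of 86 snoRNAs (22.1%) and 6 of 24 snRNAs were lower. These shares were not matched for count level, and 18.1% of all features with a summed count under 50 were lower. RMRP, the RNA of RNase MRP (chromosome 9, 35657750 to 35658019), had 2788 and 1060 counts (130.1 and 49.1 CPM), a log2 ratio of -1.41 (-1.51 to -1.305). RNU7-1, the U7 snRNA that processes histone mRNA, had 34 and 6 counts (log2 -2.42, -4.06 to -1.25), RNU4ATAC of the minor spliceosome 38 and 13 counts (log2 -1.52), SCARNA7 103 and 43 counts (log2 -1.26), SCARNA5 18 and 6 counts (log2 -1.52) and SNORD3C 16 and 3 counts (log2 -2.25, -4.85 to -0.62). RNU7-1, RNU4ATAC, SCARNA7 and SCARNA5 lie within the spans of other genes, and the calls on SCARNA5 and SNORD3C were lost with counts divided by 2. The 3 most abundant, RN7SK (583158 and 376396 counts, log2 -0.64), RN7SL1 (423908 and 291982 counts, log2 -0.55) and RN7SL2 (398047 and 289887 counts, log2 -0.47), were not called but made up 6.74% of the shControl and 4.31% of the shRBM39 input. Small structured RNAs in all took 7.05% and 4.47%. The part of these shares in the other results was not tested beyond the scalings.

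Mitochondrial transcripts took 2.96% and 2.12% of the counts. Of the 15, 0 were called, and 13 were below 0 (median -0.11). MT-CO1 was the lowest (245748 and 128440 counts, log2 -0.95), and the ribosomal MT-RNR2 the highest (16591 and 23993 counts, log2 0.52). Of 60 nuclear genes of the respiratory chain, SDHA (1453 and 3322 counts, log2 1.18, 1.09 to 1.27) was higher and 0 were lower, with 45 below 0 (median -0.23). Of 40 named long non-coding RNAs 0 were higher, PVT1 (26 and 12 counts, log2 -1.10, -2.25 to -0.09) was lower, a call lost with counts divided by 2 and with a 99% interval, and 34 were below 0.

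Among the 19116 compared features, 39 were at 0 in the shControl input and 76 at 0 in the shRBM39 input. Against a floor of 3 counts per library, MARCO, a scavenger receptor gene of macrophages, had 0 and 46 counts, at least 15.2-fold higher, and ATP10B had 0 and 28, at least 9.26-fold higher. On the other side IL20RA, a cytokine receptor gene, had 30 and 0 counts, at least 10.1-fold lower, and so had GUCY1A3 (now GUCY1A1), of the nitric oxide receptor. FUT1 had 26 and 0, at least 8.74-fold lower, and LOXL1, a collagen cross-linking enzyme gene, 24 and 0, at least 8.07-fold lower. The overlapping LOXL1-AS1 had 38 and 0 counts, at least 12.8-fold lower. In the IPs MARCO had 8 and 120 counts, IL20RA 46 and 4 and LOXL1-AS1 46 and 10, so none of these 3 was at 0 in both libraries of a hairpin. They were picked for their values.

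The IP libraries carry the same hairpin labels and are separate libraries, taken to come from the same cultures as the inputs. The shRBM39 over shControl ratio between IPs was set beside the input ratio. The IP libraries hold RNA recovered with the antibody and are not replicates of the input. A difference between the cultures would be in both pairs, so a shared sign is not an independent check. Among 18444 compared features with at least 10 counts in an IP, 1253 (6.79%) were higher and 963 (5.22%) lower between the IPs by the same rule. Of 966 features higher between inputs, 879 (91.0%) were above 0 and 472 (48.9%) were called higher between the IPs, where 49.5% of all features were above 0. Of 1056 lower between inputs, 828 (78.4%) were below 0 and 394 (37.3%) were called lower. For protein-coding genes with 200 summed counts, all 396 higher genes were above 0 between the IPs, 232 (58.6%) of them called, and 139 of 140 lower genes were below 0, 81 (57.9%) of them called.

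The exception was TMOD2, with 156 and 58 input counts (log2 -1.43) and 138 and 304 IP counts (log2 1.26). CCDC80 had 76 and 540 IP counts (log2 2.95), VIM 2154 and 8290 (2.07), DLK1 683 and 8 (-6.20), S100A9 9610 and 1141 (-2.95) and APOA2 16567 and 4503 (-1.75). Several actin-linked genes were farther apart between the IPs than between the inputs. MYH9 had 35753 and 959474 IP counts, a log2 ratio of 4.87 against 1.45 between the inputs, and LMO7, a junction-associated actin regulator named after its values were seen, 3505 and 112482 IP counts, 5.13 against 1.07. RBM39 itself was 1.10 between the IPs and -0.12 between the inputs. Small structured RNAs had the opposite sign, with a median of 1.03 between the IPs against -0.59 between the inputs, and mitochondrial transcripts had 1.34 against -0.11. RMRP shows this with 639 and 1420 IP counts (log2 1.28).

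**Figure D5:**
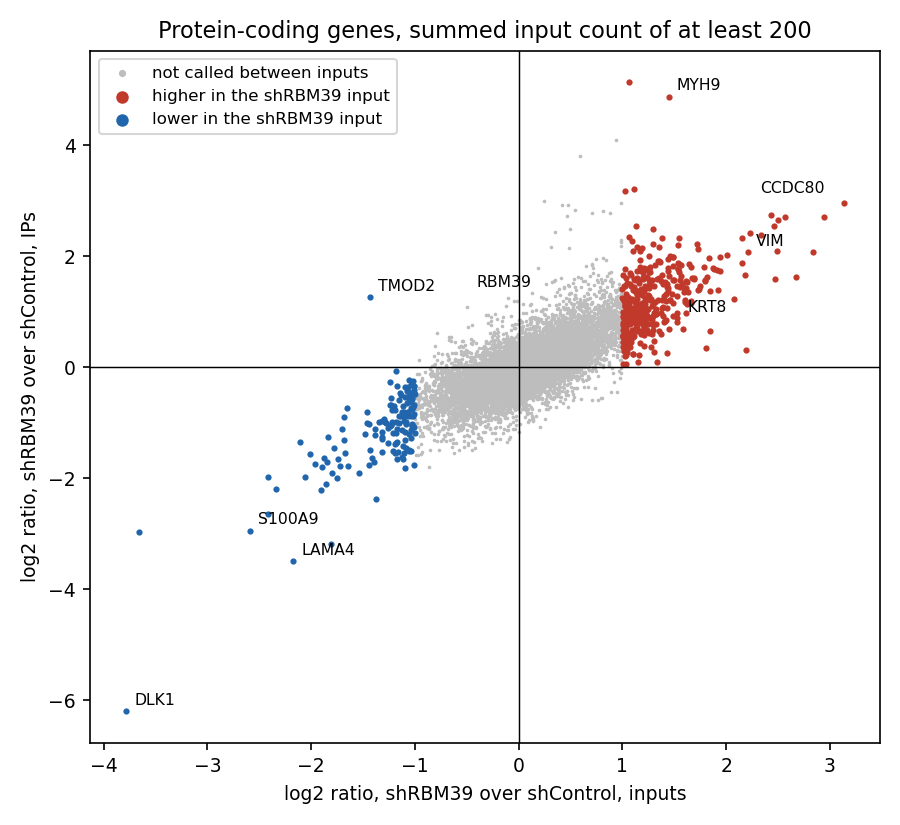
Log2 ratio of shRBM39 over shControl between the IPs (vertical) against the same ratio between the inputs (horizontal) for protein-coding genes with a summed input count of at least 200. Genes higher between the inputs are red and genes lower are blue. All 396 red points lie above 0 and 139 of 140 blue points below 0 on the IP axis, TMOD2 being the exception, and MYH9 stands at 4.87 between the IPs.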

How the data were processed

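The authors deposited 1 table of raw counts per gene symbol for the 4 libraries, with no normalization. The submitters' processing notes list StringTie 1.3.4d, cutadapt 1.9 and HISAT2 2.0.4 with hg38 as the build. Their roles, the annotation, and the program and strand setting used for counting were not given in the sources used here. Reads of overlapping or antisense genes therefore cannot be told apart.

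TMM factors of the 2 input libraries came from edgeR 4.0.16 under R 4.3.3 (1.03 for the shControl and 0.972 for the shRBM39 input). Each log2 ratio used counts with 0.5 added, with exact conditional (Clopper-Pearson) 95% intervals from scipy 1.17.1. The code was run on simulated counts drawn independently, which does not test the intervals on these data. Calls needed 2-fold and an interval excluding equality. Of the counts from 3 to 6, 71.4% and 72.3% were even, which could come from both mates being counted, and the intervals would then be too narrow. Intervals cover counting error only, as there was 1 library a side. No molecular identifiers mark independent molecules, so repeated reads of a molecule would also narrow the intervals. Their median width was 0.57 on the log2 scale.

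Symbols were matched to RefSeq (GRCh38.p14), 14545 by current and 876 by older symbol (80.7% of compared features). Date-like names (0.0335% and 0.0286% of counts) were never named. Named were RBM39, RFX1, the 15 highest and 15 lowest genes with a summed count of at least 200 by the bound nearer to 0, and up to 6 called members a direction of 60 gene lists. Further members, called or not, were named after their values were seen, to complete a list. Members and lists were chosen with earlier results of these data known, and 5 lists were added after the values were seen. Lists that the text does not name, and some members counted in a list, are not reported here. Alternatives were other scalings (DESeq2 1.42.0 size factors among them), filters, added counts, intervals, halved counts and folds.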

Additional observations from a re-analysis of the deposited data

How the results depend on the processing

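No paired analysis was possible because each group had 1 library and the labels give no replicate numbers, so no replicate could be left out either. Against 1038 higher and 1202 lower features, a minimum of 10 counts in both inputs gave 647 lower, and a minimum of 100 counts in at least 1 input gave 490 higher and 238 lower, in both cases because fewer features were compared. Counts divided by 2 gave 701 lower, 4-fold gave 237 higher and 375 lower, and 1.5-fold gave 2502 higher and 2391 lower. The other scalings, the added count of 2, the 99% interval and the absence of a filter kept both counts within 1.5 times. The RBM39 ratio of -0.12 became -0.20 with total counts and -0.26 with total counts without small structured and mitochondrial RNAs, which change only the library sizes, and stayed between -0.13 and -0.11 with the DESeq2 and 4-library TMM scalings. Of 236 named calls, 32 were lost with total counts, 37 without small structured and mitochondrial RNAs, 25 with halved counts and 1 and 2 with DESeq2 and 4-library TMM scaling, and 0 were reversed. The medians of 8 lists changed sign with total counts and those of 13 with the other total, lists whose medians lay near 0. Features under 50 summed counts carry wide intervals, and without replicates no setting measures the variation between cultures.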

Other observations

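Intestinal epithelial genes were put together as a list after several had been seen among the higher features, so their counts describe the choice. Of 16 compared, 9 were higher and 0 lower (median 1.30). The mucin gene MUC13 had 142 and 606 counts (log2 2.08, 1.82 to 2.36), the brush border scaffold gene PDZK1 242 and 941 counts (log2 1.94, 1.74 to 2.16), TRIM31 267 and 936 counts (log2 1.80, 1.60 to 1.999), the guanylin receptor gene GUCY2C 371 and 1260 counts (log2 1.75, 1.58 to 1.92) and the intestinal master regulator CDX2 443 and 937 counts (log2 1.07, 0.90 to 1.23, lost with total counts). CDH17, ANXA13, CFTR and CEACAM5 were given above. VIL1 (0.37) and the secreted AGR2 (-0.31) and TFF1 (-0.12) were not called.

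A further 4 lists were drawn up in the same way. Among 16 proteins of the U5 and tri-snRNP particles, 7 were higher: SNRNP200 (2788 and 10039 counts, log2 1.84, 1.78 to 1.897), EFTUD2 (595 and 1814 counts, log2 1.60), DDX23 (2299 and 6740 counts, log2 1.54), PRPF6 (1.49), SART1 (1.44), CD2BP2 (1.04, lost with total counts) and PRPF8, while TXNL4A (-0.53) and SNRNP27 (-0.06) were not called. Among 6 caveola genes, PTRF and SDPR (90 and 333 counts, log2 1.87, 1.54 to 2.23) were higher, and CAV1 (52 and 72 counts, log2 0.45) was not called. Among 19 collagen-modifying enzymes, P3H2 (20 and 96 counts, log2 2.22) was higher, and FKBP10 (683 and 209 counts, log2 -1.72, -1.95 to -1.495), its genomic neighbour P3H4 (395 and 107 counts, log2 -1.89, -2.22 to -1.58), CRTAP (2416 and 1194 counts, log2 -1.03) and LOXL1 were lower. Among 8 natural killer cell ligands, 4 were lower, all of them given above with the HLA genes. Other abundant genes outside the rule were the histone chaperone gene SUPT16H (3854 and 14601 counts, log2 1.91, 1.86 to 1.96), whose partner SSRP1 was not called (10534 and 15166 counts, log2 0.51), and the segregase gene VCP (2265 and 7648 counts, log2 1.74, 1.68 to 1.81).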
